A study of Rattus norvegicus with 13 samples.

Results

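Dusp4, Dusp6, Etv1, Ier3 and Fgf7 are genes that act in, or respond to, signalling by fibroblast growth factors (FGFs) through MAP kinases. These 5 genes, of 14506 measured, were chosen by their difference between skin-derived precursors (SKPs) and mesenchymal stromal cells (MSCs) in the arrays described here, so that difference is given below as a description, with no test. Each was found by its symbol in the array annotation, and each was measured by a single probe set. SKPs are precursors that grow from dermis as floating spheres, and MSCs are adherent stromal cells from adult tissue. RNA came from cultures of Sprague Dawley rats, an outbred strain, hybridised to Affymetrix Rat Gene arrays, and the series' design text calls the animals adult. The groups were dorsal, facial and ventral SKPs with 3 isolates each and MSCs with 4 samples, 13 arrays in all. Cells of all groups had been passaged 2 times, and no group carried a genetic change or a drug treatment that the labels name. Neither the culture medium of the cells nor the tissue of the MSCs was given in the sources used here, so medium and cell type cannot be told apart.

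FGFs bind receptor tyrosine kinases, which pass the signal through Ras and a chain of kinases to the MAP kinase ERK. Active ERK switches on early genes and transcription factors of the ETS family, and also its own inhibitors, among them phosphatases that remove the phosphate groups from MAP kinases. FGF ligands made by dermal mesenchyme act on the overlying epithelium, and SKPs are commonly expanded with FGF and EGF.

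Promoter windows are shown for the members that have one in the RefSeq table used, build GRCr8, because ETS factors are among the end points of the pathway: Dusp6 and Etv1 were higher in SKPs, and Fgf7 was lower. Each window runs from 250 bases before to 50 bases after the annotated start of the gene, 5′ to 3′. Capitals mark GGAA, the short core of ETS sites, on either strand (TTCC on the strand printed) and, in Etv1, a CArG box, the motif of serum response factor. Dusp6 lies at chr7:35979354-35979653, Etv1 at chr6:61317179-61317478 and Fgf7 at chr3:133735377-133735676, all on the plus strand. Dusp4 and Ier3 were not matched.
Dusp6: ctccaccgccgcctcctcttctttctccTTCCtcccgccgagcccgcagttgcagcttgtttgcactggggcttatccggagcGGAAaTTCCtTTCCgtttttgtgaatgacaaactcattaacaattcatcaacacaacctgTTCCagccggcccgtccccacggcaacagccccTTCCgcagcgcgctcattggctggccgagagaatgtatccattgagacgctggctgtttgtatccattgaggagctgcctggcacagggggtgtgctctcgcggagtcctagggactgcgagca
Etv1: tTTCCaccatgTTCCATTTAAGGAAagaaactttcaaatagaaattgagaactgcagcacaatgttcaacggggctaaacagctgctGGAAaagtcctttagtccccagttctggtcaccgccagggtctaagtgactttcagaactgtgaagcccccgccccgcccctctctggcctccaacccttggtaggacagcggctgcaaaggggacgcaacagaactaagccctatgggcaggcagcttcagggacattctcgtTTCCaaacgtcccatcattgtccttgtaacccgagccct
Fgf7: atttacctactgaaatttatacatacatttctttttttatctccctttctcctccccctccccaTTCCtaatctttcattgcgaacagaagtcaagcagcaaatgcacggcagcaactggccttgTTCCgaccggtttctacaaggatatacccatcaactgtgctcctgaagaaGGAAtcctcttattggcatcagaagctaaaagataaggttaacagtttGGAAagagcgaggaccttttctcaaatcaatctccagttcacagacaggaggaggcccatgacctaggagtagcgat
The Dusp6 window held 6 GGAA matches, that of Etv1 5 and that of Fgf7 4. Among the 33469 windows of the table, 95.8% held at least 1 match and the median was 3. At least 6 matches, as in Dusp6, were held by 16.4% of all windows, and at least 4, as in Fgf7, by 46.8%. The CArG box of Etv1 began at −237 relative to the start and overlapped GGAA matches on both of its sides, and 1.64% of all windows held such a box. CCGGAA, a longer ETS core, was in none of the 3 windows and in 15% of all. TGANTCA, the AP-1 motif, and TGACGTCA, the cyclic AMP response element, were also in none of the 3, against 7.33% and 1.83% of all windows. GC content was 57.7% in Dusp6, 52% in Etv1 and 43.7% in Fgf7, with a median of 51.7% over all windows. These matches are letters in a window, and no binding was measured.

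All values are log2 RMA values, so a difference of 1 is a doubling. Dorsal array 3 and facial array 3 stood apart from the other arrays of their regions. Dorsal array 3 differed more than 2-fold from dorsal arrays 1 and 2 at 9.55% and 7.67% of genes, while those differed from each other at 2.07%. The same shares were 4.23% and 4.05% for facial array 3, against 2.28%. Ventral arrays lay closer together, at 0.42% to 0.81%. The mean over 12 macrophage and leukocyte markers was 10.19 on facial array 3, 8.03 and 6.71 on facial arrays 1 and 2, and 4.34 to 7.55 on dorsal, 5.28 to 5.70 on ventral and 4.13 to 4.87 on MSC arrays. Dorsal array 3 had the highest mean of hypoxia and glycolysis genes, 10.86 against 9.30 to 10.08 on the other 12 arrays, and a cell cycle mean of 4.59 against 6.78 and 7.31 on dorsal arrays 2 and 1. Cell cycle means were 8.13 to 9.0 on MSC arrays. As for the labels, the mean of 8 SKP markers was 7.27 on dorsal array 3 and 8.55 to 9.23 on the other 8 SKP arrays, against 7.29 to 7.85 on MSC arrays. Nes, the intermediate filament nestin used to mark SKPs, was low in dorsal (mean 4.31) and facial SKPs (4.79) and higher in ventral SKPs (7.54), with 5.55 in MSCs between them. Snai2 had a higher mean in MSCs (8.93) than in dorsal (7.5), facial (8.1) or ventral SKPs (7.54). Vcan was higher in MSCs (10.79) than in dorsal SKPs only (10.16). Sox2, Twist1, Crabp1, Ngfr and Pdgfra had higher means in each SKP region than in MSCs. The mean of 6 stromal markers was 9.02 on dorsal array 3, 10.26 to 10.64 on the other 8 SKP arrays and 10.14 to 10.45 on MSC arrays. Nt5e, 1 of the 6, was lower than that mean. It ran from 4.29 to 7.56 in dorsal, 7.81 to 8.83 in facial and 7.47 to 7.57 in ventral SKPs, and from 5.87 to 8.33 in MSCs. In cultures measured whole, fewer cells of a type and less RNA per cell cannot be told apart.

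Among the phosphatases, Dusp6, which acts on ERK in the cytoplasm, was high on every array of SKPs. The dorsal arrays read 11.20, 11.12 and 11.31, the facial ones 11.63, 11.82 and 11.84, and the ventral ones 12.09, 12.12 and 12. MSCs gave 9.47, 9.18, 8.47 and 8.42. The lowest SKP array lay 1.65 above the highest MSC array, and the 3 regions did not overlap with each other, in the order ventral, facial, dorsal. The means were 11.21 ± 0.10, 11.76 ± 0.11 and 12.07 ± 0.06 (SD, n = 3 each) in dorsal, facial and ventral SKPs and 8.89 ± 0.52 (n = 4) in MSCs. SKPs, as the mean of the 3 regions, exceeded MSCs by 2.79 (SE 0.17), a 6.93-fold difference. The arrays of a region thus lay much closer together than those of the MSCs.

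Dusp4 encodes a nuclear MAP kinase phosphatase. It had the largest difference between SKPs and MSCs among the 5 genes. It read 9.52, 8.73 and 10.53 on dorsal arrays, 9.77, 8.86 and 8.74 on facial arrays and 9.31, 9.60 and 9.78 on ventral arrays, against 4.63, 4.25, 3.62 and 4.75 in MSCs. The MSC values lay near the background of 3.83, set at the 25th percentile of the gene means in MSCs, and 3 of the 4 arrays exceeded it. No SKP array came within 3.98 of an MSC array. The means were 9.59 ± 0.90, 9.12 ± 0.56 and 9.57 ± 0.24 (SD, n = 3 each) in dorsal, facial and ventral SKPs and 4.31 ± 0.51 (n = 4) in MSCs, and the difference was 5.11 (SE 0.32), or 34.6-fold. Since the MSC values lay near background, this fold and the place below are approximate. By that difference Dusp4 stood at place 12 of all genes from the highest, where Dusp6 stood at 127.

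Dorsal array 3 gave the highest Dusp4 value of all arrays, 1.41 above the mean of dorsal arrays 1 and 2. It was also the array with the highest hypoxia and lowest cell cycle means, and their part in the value was not tested. With dorsal array 3 and facial array 3 both left out, Dusp4 still differed by 5.02 between SKPs and MSCs. Dusp6 moved little on these arrays: dorsal array 3 was 0.16 and facial array 3 was 0.11 above the mean of the other arrays of its region.

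Etv1, an ETS transcription factor whose expression rises with FGF signalling, was also higher in SKPs. Its values were 9.45, 9.44 and 9.21 on dorsal arrays, 9.86, 9.68 and 9.91 on facial arrays and 9.39, 9.51 and 9.32 on ventral arrays, and 6.66, 7.71, 7.52 and 7.45 in MSCs. All SKP arrays lay above all MSC arrays, by at least 1.5, and the facial arrays lay above all other SKP arrays. Means were 9.37 ± 0.14, 9.82 ± 0.12 and 9.41 ± 0.10 (SD, n = 3 each) in dorsal, facial and ventral SKPs and 7.34 ± 0.46 (n = 4) in MSCs. The difference of SKPs from MSCs was 2.19 (SE 0.16), or 4.58-fold, at place 221 from the highest.

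Ier3, an early response gene whose product acts on ERK signalling and on cell survival, was lower in SKPs, by a small step. The SKP arrays read 8.65, 8.41 and 8.58 (dorsal), 8.84, 8.96 and 9.0 (facial) and 8.59, 8.60 and 8.62 (ventral), against 9.25, 9.09, 9.81 and 9.57 in MSCs. The groups did not overlap, although the highest facial array came within 0.09 of the lowest MSC array. The 3 facial arrays again lay above the other 6 SKP arrays. Means were 8.55 ± 0.12, 8.93 ± 0.09 and 8.61 ± 0.01 (SD, n = 3 each) in dorsal, facial and ventral SKPs and 9.43 ± 0.32 (n = 4) in MSCs, a difference of −0.74 (SE 0.12). SKPs were thus 1.67-fold lower, at place 919 of all genes from the lowest.

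Fgf7, keratinocyte growth factor, is the only ligand among the 5 genes and was lower in SKPs. The dorsal arrays gave 9.20, 8.16 and 8.33, the facial arrays 8.13, 7.23 and 6.92 and the ventral arrays 6.20, 7.14 and 7.11, against 11.37, 10.76, 9.31 and 9.17 in MSCs. Here the groups overlapped: dorsal array 1 lay just above MSC array 4. The facial arrays overlapped with the ventral ones and lay below all dorsal ones. Means were 8.56 ± 0.56, 7.42 ± 0.63 and 6.82 ± 0.54 (SD, n = 3 each) in dorsal, facial and ventral SKPs and 10.15 ± 1.08 (n = 4) in MSCs. The difference was −2.55 (SE 0.42), or 5.86-fold lower in SKPs, at place 99 from the lowest. Ventral SKPs were furthest from MSCs (−3.34) and dorsal SKPs closest (−1.59).

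**Figure D1:**
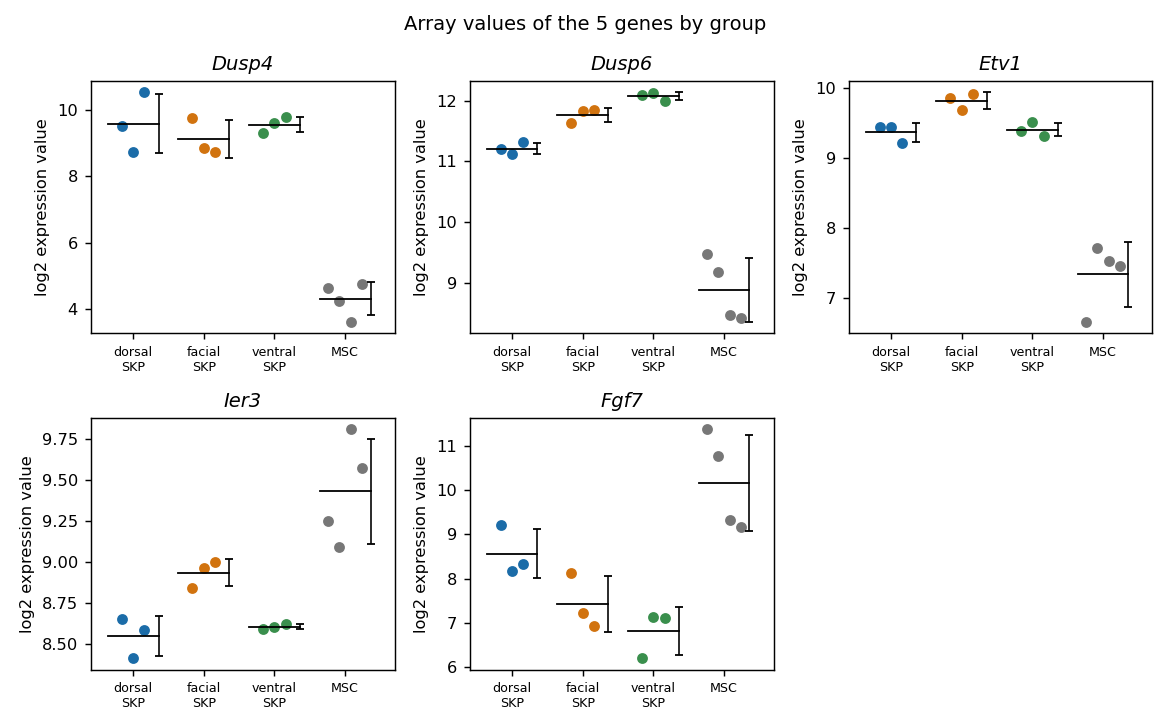
Log2 RMA value of the 5 genes on each array (points) in dorsal, facial and ventral SKPs (n = 3 each) and MSCs (n = 4), with the group mean as a line and the SD as an error bar, 1 panel a gene. Dusp4, Dusp6 and Etv1 were higher on every SKP array than on any MSC array, Ier3 was lower on every one, and for Fgf7 dorsal array 1 overlapped with the MSCs.

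Between SKPs and MSCs the arrays of 4 of the 5 genes did not overlap. Of all genes, 6.6% were higher in SKPs without overlap and 6% lower, and 25.3% differed in limma at an adjusted p under 0.05 (13.1% higher, 12.2% lower). Since the genes were chosen on this contrast, nothing is read from their count. Set against MSCs, each region kept the sign of the pooled difference in all 5 genes. Dusp4 exceeded the MSCs by 5.28 (dorsal), 4.81 (facial) and 5.25 (ventral). Dusp6 did so by 2.32, 2.87 and 3.18, and Etv1 by 2.03, 2.48 and 2.07 in the same order. These 3 values per gene share the 4 MSC arrays.

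The MSC arrays fell into pairs, and some of the genes followed the pairs. Arrays 1 and 2 differed more than 2-fold at 0.76% of genes and arrays 3 and 4 at 2.25%, against 4.61% to 6.58% for arrays of different pairs. Fgf7 had a mean of 11.06 on arrays 1 and 2 and of 9.24 on arrays 3 and 4, so that the SKP mean lay −3.46 from the first pair and −1.64 from the second. Dusp6 was likewise higher on arrays 1 and 2 (9.33 against 8.45), which put SKPs 2.35 above the first pair and 3.23 above the second. Ier3 ran the other way, with 9.17 and 9.69, so that the SKP mean lay −0.48 from the first pair and −1.0 from the second. Etv1 (7.19 and 7.49) and Dusp4 (4.44 and 4.18) differed less between the pairs. Smooth muscle markers had means of 9.25 and 9.69 on arrays 1 and 2 and 11.15 and 11.90 on arrays 3 and 4, and of 5.21 to 5.70 on SKP arrays. Their part in these differences was not tested. All 5 genes kept the sign of their difference between SKPs and MSCs against either pair.

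Whether the genes differed between skin regions is a question on which they were not chosen, and it was tested in limma across all 14506 genes. No member passed an adjusted p of 0.05 in any of the 4 regional comparisons, so 0 of 20 tests were called. An unadjusted p under 0.05 was found in 6 of the 20. How many of all genes had such a p was not counted, and the 4 comparisons share arrays, so nothing is read from this count. The share of all genes called was 1.25% between facial and dorsal, 6.6% between facial and ventral, 6.11% between dorsal and ventral, and 2.7% between facial and trunk SKPs, trunk being the mean of dorsal and ventral. Dusp6 came closest. It was lower in dorsal than in ventral SKPs by −0.86 (SE 0.23, 95% interval −1.37 to −0.35), with a limma adjusted p of 0.0522. That p ranged from 0.00387 to 0.148 over the other settings tried. It passed with the 9 SKP arrays alone (0.00387), where the wider spread of the MSCs does not enter, and missed with arrays 3 of dorsal and facial skin left out (0.0911). Markers of endothelial cells moved with this contrast, with means of 4.76 to 5.39 on ventral arrays and 3.29 to 3.94 on all others, and their part was not tested.

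Fgf7 ran opposite to Dusp6 and was higher in dorsal than in ventral SKPs by 1.75 (SE 0.57, 95% interval 0.51 to 2.98), with a limma adjusted p of 0.0937 and a range of 0.0418 to 0.281 over the other settings. Here too the fit on SKP arrays alone gave the lowest value. Facial SKPs lay between, −1.14 from dorsal (adjusted p = 0.388) and 0.61 from ventral SKPs (adjusted p = 0.59), and neither step passed. Dusp6 in facial SKPs was likewise between, 0.55 above dorsal (SE 0.23, adjusted p = 0.313) and −0.31 from ventral SKPs (adjusted p = 0.49). The step from dorsal to facial passed only in the fit on SKP arrays alone (adjusted p = 0.0475).

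Etv1 and Ier3 had their highest SKP levels in facial cells. Etv1 was 0.43 (SE 0.19) higher in facial than in trunk SKPs, with an unadjusted p of 0.0405 and an adjusted p of 0.254 in limma. Ier3 was 0.36 (SE 0.14) higher, with an unadjusted p of 0.0247 and an adjusted p of 0.2. For both the 3 facial arrays did not overlap with the 6 trunk arrays, as held for 7.58% of all genes. Macrophage and leukocyte markers had means of 6.71 to 10.19 on facial and 4.34 to 7.55 on trunk arrays, which overlap. With their mean as a covariate, the facial excess was 0.34 for Etv1 (adjusted p = 0.755) and 0.35 for Ier3 (adjusted p = 0.626). Dorsal and ventral SKPs differed by −0.04 in Etv1 (adjusted p = 0.943) and by −0.06 in Ier3 (adjusted p = 0.88).

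Dusp4 had no regional difference that passed. Facial SKPs were −0.47 (SE 0.43) from dorsal ones, with an adjusted p of 0.666, and dorsal and ventral SKPs differed by 0.03 (adjusted p = 0.982). The first difference turned to 0.19 and the second to −0.44 when arrays 3 of dorsal and facial skin were left out. Facial minus ventral was −0.44 (adjusted p = 0.611) and facial minus trunk −0.46 (adjusted p = 0.591), and both kept their sign in all settings run, between −0.77 and −0.13 and between −0.78 and −0.03. Without overlap of arrays, dorsal and facial SKPs were apart in 4 of the 5 genes (17.4% of all genes), dorsal and ventral SKPs in 2 (28.7%) and facial and ventral SKPs in 3 (36.4%).

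**Figure D2:**
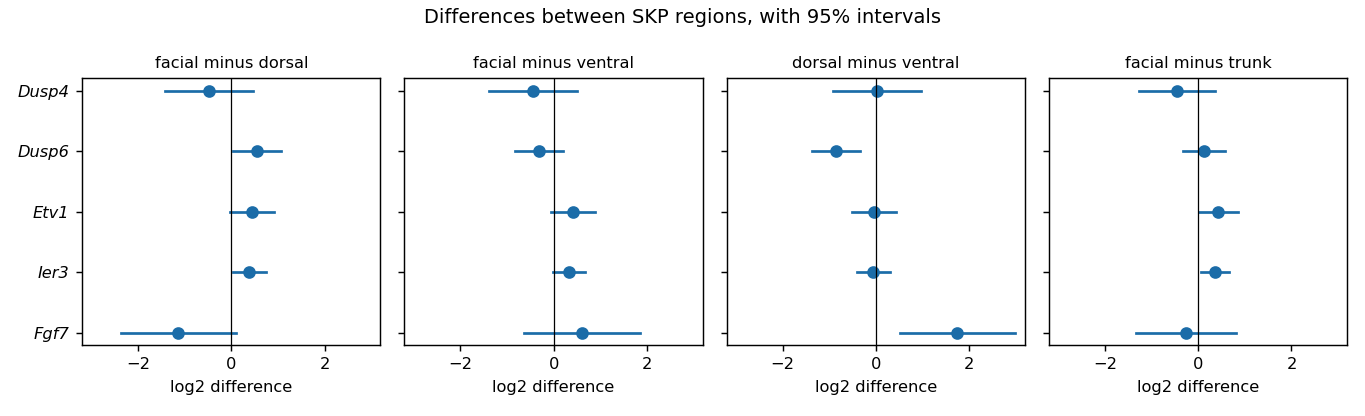
Log2 difference between SKP regions for the 5 genes in 4 comparisons, with the 95% interval of the limma fit as a bar. No adjusted p was under 0.05, and the intervals furthest from 0 were those of Dusp6 (−1.37 to −0.35) and Fgf7 (0.51 to 2.98) between dorsal and ventral SKPs.

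The genes differed in how far arrays of a group lay apart. Set among all genes by SD within a group, Fgf7 stood at percentiles of 89.5 to 98.8 over the 4 groups. Dusp4 reached 95.8 in dorsal SKPs, and Dusp6 reached 92.2 in MSCs. At the other end Ier3 was at 2.3 in ventral SKPs. Between members, Pearson correlations were taken of the deviations from group means over the 13 arrays, which share the groups and their normalisation. Dusp6 and Fgf7 had r = 0.70 and Dusp6 and Ier3 r = −0.71, and the MSC pairs described above are part of these deviations. Over the levels of the 9 SKP arrays, which hold the regional differences, Dusp6 and Fgf7 had r = −0.87 and Etv1 and Ier3 r = 0.80.

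The genes with the most similar profile were ranked by Pearson r among 11324 genes above background, over 13 arrays that share the split into SKPs and MSCs. For Dusp4 they were Fndc3a (0.977), Rbm5 (0.969) and Mmp13 (0.967), and for Dusp6 Laptm4a (0.98), Bdkrb2 (0.979) and Robo1 (0.978). Etv1 was most like Sema6d (0.986), Ccn3 (0.976) and Cd59b (0.971). Ier3 had Acan (0.962), Zdhhc21 (0.938) and Serf2 (0.937), and Fgf7 had Bicd1 (0.963), Cchcr1 (0.944) and Pcbp3 (0.934). An r above 0.9 was reached by 212 genes with Dusp6, 165 with Dusp4 and 129 with Etv1, but by 33 with Ier3 and 23 with Fgf7. Within the 9 SKP arrays the nearest genes were others: Hax1 (0.977) for Dusp4, Arf6 (0.961) for Dusp6, Cpne8 (0.979) for Etv1, Pnisr (0.965) for Ier3 and Odf1 (0.957) for Fgf7. These spanned from 0.47 (Pnisr) to 1.3 (Cpne8) over those arrays, and Odf1 was dim, with a highest group mean of 4.26.

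The members were then set beside 8 lists of genes of the same pathway, with the members themselves taken out. Of 121 such genes 109 were measured. Of these, 25 were higher and 13 lower in SKPs than in MSCs in limma at an adjusted p under 0.05, and 71 were not called. Those are 22.9% and 11.9% of the measured genes, against 13.1% and 12.2% of all genes, and the median difference was 0.04, against −0.02 over all genes. With the mean of macrophage and leukocyte markers as a covariate, 18 were higher and 7 lower. The share of all genes called in that fit was not counted, so the drop is not read as particular to the pathway. The same holds for the covariate counts of single lists below. All calls against MSCs treat the MSC arrays as independent, although they fell into the pairs described above. Phosphatases besides Dusp4 and Dusp6 split evenly, with 3 higher, 3 lower and 3 not called among 9. Dusp5, a nuclear phosphatase of ERK, was higher by 1.99 (SE 0.33, adjusted p = 0.000791). Its MSC values followed the pairs, at 7.89 and 7.94 on arrays 1 and 2 and 5.97 and 6.39 on arrays 3 and 4. Dusp1, which acts on stress kinases as well as ERK, was lower by −1.66 (adjusted p = 6.21e-07).

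A list of inhibitors of receptors, Ras and its kinases held 9 measured genes: 4 Sprouty genes, 3 Spred genes, Rasa1 and Errfi1. Of these 3 were higher and 0 lower. They were Spred1 with 1.53 (SE 0.13, adjusted p = 4.84e-06), Spry4 with 1.49 (SE 0.25, adjusted p = 0.00099) and Rasa1, a GTPase-activating protein of Ras, with 1.40 (SE 0.11, adjusted p = 3.52e-06). Spry4 differed between the MSC pairs, at 6.47 and 6.33 on arrays 1 and 2 and 7.86 and 7.38 on arrays 3 and 4. ETS factors besides Etv1 had 3 of 8 higher and 1 lower. The lower call was lost (0) without MSC array 2 or 3, ventral array 1 or 2, or both arrays 3, and with the covariate, and 5 were higher without dorsal array 3. Among the higher ones was Etv4, its close relative, with 1.69 (SE 0.11, adjusted p = 6.94e-07). Early genes besides Ier3 had 7 of 20 higher and 2 lower, with 4 higher under the covariate. The transcription factor Egr2 had a pooled difference of 2.24 (SE 0.37, adjusted p = 0.000835), with means of 10.49 in ventral, 7.26 in facial and 6.32 in dorsal SKPs and 5.78 in MSCs, and dorsal array 3 (4.78) lay below every MSC array. By contrast, Fos, a part of AP-1, gave −1.63 (SE 0.24, adjusted p = 0.000348) and the nuclear receptor Nr4a1 −2.18 (SE 0.27, adjusted p = 0.000126).

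FGF ligands besides Fgf7 were nearly all uncalled, with 1 of 20 higher and 0 lower. Without ventral array 3, 2 were higher. With repeated quantile normalisation or array weights, or without facial array 2, MSC array 2 or MSC array 3, 1 was lower. The ligand called higher, Fgf2, had 0.87 (SE 0.26, adjusted p = 0.029), and it was no longer called without MSC array 2 (0.08), MSC array 3 (0.0971) or ventral array 2 (0.0531), or with the macrophage covariate (0.382). Among FGF receptors and their partners at the cell surface 4 of 13 were higher and 2 lower (1 with the covariate), led by the receptor Fgfr1 with 2.44 (SE 0.28, adjusted p = 6.56e-05). EGF ligands and receptors had 4 of 12 higher and 3 lower, which became 2 and 1 with the covariate. Among the lower ones in the fit without it was Hbegf, an EGF receptor ligand, with −3.72 (SE 0.25, adjusted p = 1.11e-06). The kinases and adaptors of the cascade had 0 of 18 higher (1 without dorsal array 1) and 2 lower, Frs2 (−0.37, adjusted p = 0.0273) and Sos1 (−0.24, adjusted p = 0.0454). Both of those calls were lost in several other settings, 6 for Frs2 and 14 for Sos1.

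**Figure D3:**
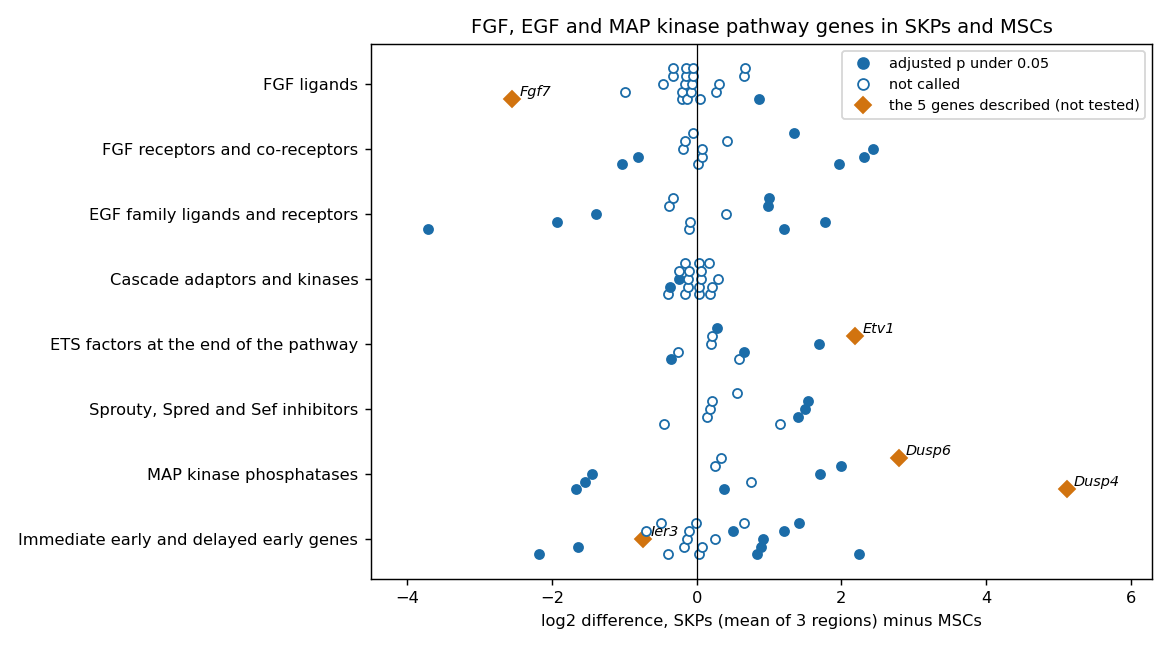
Log2 difference between SKPs and MSCs for each measured gene of 8 pathway lists, with the 5 members marked and described only. In the lists without members, 25 of 109 genes were called higher and 13 lower in limma, and the cascade list had 0 higher and 2 lower.

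Between regions, over all 114 measured list genes, members included, 3 were higher and 1 lower in facial than dorsal SKPs (0.793% and 0.462% of all genes), and 5 and 5 in facial against ventral SKPs (2.25% and 4.36%). The counts were 4 and 9 in dorsal against ventral SKPs (2.35% and 3.76%) and 3 and 1 in facial against trunk SKPs (1.28% and 1.42%). Dusp1 was lower in ventral SKPs, where Dusp6 had its highest mean: it read 8.51, 8.36 and 8.46 there, and 10.05 to 10.70 in the other regions. Egr2 was highest in the same cells, at 10.56, 10.22 and 10.70. Etv4 was higher in ventral than in dorsal SKPs by the same fit, with dorsal minus ventral at −1.24 (SE 0.15, adjusted p = 0.000773), where Etv1 gave −0.04. The endothelial markers given above also set the ventral arrays apart, and their part in these 3 genes was not tested. Areg, an EGF receptor ligand, was higher in facial SKPs, at 6.96, 8.56 and 7.69 against 4.62 to 5.31 in the other regions.

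**Figure D4:**
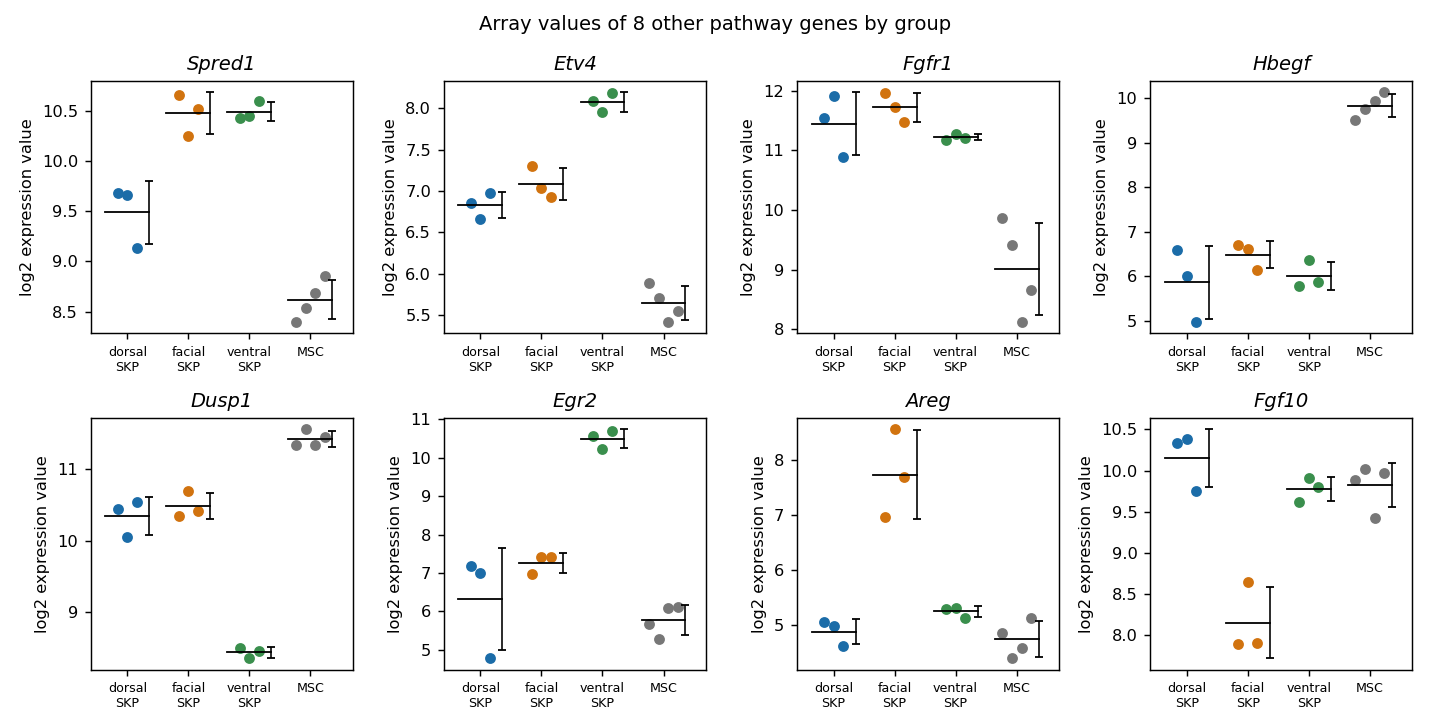
Log2 RMA value on each array (points) for 8 other genes of the pathway, in dorsal, facial and ventral SKPs (n = 3 each) and MSCs (n = 4), 1 panel a gene. Areg was highest on the 3 facial arrays, Egr2 was highest and Dusp1 lowest on the 3 ventral arrays, and Hbegf was higher on all MSC arrays than on any SKP array.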

How the data were processed

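The deposited values are on a log2 scale. The authors computed them by RMA at the gene-core level in Affymetrix Expression Console, per the labels, a method that corrects background, quantile-normalises arrays and sums up probes. Per the submitters' processing notes, limma was used too, with no version named. Nothing was normalised again, and array medians lay between 4.91 and 5.01. For arrays the number of isolates limits the precision.

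Of 29215 probe sets, 15310 carried exactly 1 symbol, 323 several and 13582 none in the annotation given. For 527 genes with several probe sets the one with the highest mean was kept, which left 14506 genes. Group means were fitted over all 13 arrays with limma 3.58.1 (lmFit, eBayes) in R 4.3.3, and p-values were adjusted by Benjamini-Hochberg over all genes of a comparison, with a threshold of 0.05, two-sided. The fit was also run on simulated data with independent noise and changes in facial SKPs only. That run held no MSC pairs and no outlying arrays, so it cannot show how the fit handles those. P-values rest on the differences among isolates, which the series calls independent for SKPs. The sample titles do not say this for the MSCs, whose arrays fell into pairs. If the MSC arrays were not independent, p-values against MSCs are too small.

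The members and the pathway lists were chosen with earlier results of these data known, so the lists' counts are no independent evidence. Outside the members, genes were named by a rule: the 3 called genes with the largest absolute differences of each list between SKPs and MSCs, and the 3 over all lists in each regional comparison, part of which are printed. Etv4 between regions, Dusp1 and Areg between SKPs and MSCs and the marker genes were named outside that rule, after their values were seen. The most similar profiles were the 3 genes with the highest Pearson r. Promoter sequences are RefSeq's (GRCr8), and the motif search was added after the values were seen. The alternatives were a repeated quantile normalisation, a filter on dim genes, trend and robust options, array weights, the mean of probe sets, SKP arrays alone, the replicate number as a block, a macrophage and leukocyte covariate, and arrays left out. Figures used matplotlib 3.10.9 in Python 3.11.15.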

Additional observations from a re-analysis of the deposited data

Results flagged for a closer look

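Named here are the largest regional differences among those of the 114 pathway list genes called in limma at an adjusted p under 0.05. Up to 3 were taken for each comparison, and they belonged to 6 genes. No member was called, so none could be among them. Larger differences that were not called are left out, such as that of Fgf7 between dorsal and ventral SKPs (1.75). Areg, an EGF receptor ligand, was higher in facial SKPs by 2.85 against dorsal (adjusted p = 0.00116), by 2.48 against ventral (0.0013) and by 2.67 against trunk SKPs (0.000471). Fgf10, an FGF ligand of mesenchyme like Fgf7, was lower in facial SKPs, by −2.0 against dorsal (adjusted p = 0.00151) and −1.81 against trunk SKPs (0.000712), and the second missed the threshold with the macrophage and leukocyte covariate (0.0527). Spred1 was 0.99 higher in facial than in dorsal SKPs (adjusted p = 0.0153), and this was lost in 5 settings: without facial array 1 (0.0566), without facial array 3 (0.0647), without both arrays 3 (0.104), with the covariate (0.304) and with the replicate number as a block (0.0542).

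Egr2 was lower in facial and dorsal than in ventral SKPs, with differences of −3.23 for facial minus ventral (adjusted p = 0.00325) and −4.17 for dorsal minus ventral (0.000848). Dusp1 ran the other way, with 2.04 for facial minus ventral (adjusted p = 1.06e-05), 1.90 for dorsal minus ventral (2.15e-05) and 1.09 for facial minus trunk (0.000693). Dusp2, a nuclear phosphatase, gave −1.70 for dorsal minus ventral (adjusted p = 0.0281), which was lost in 6 settings. Endothelial markers were higher on ventral arrays too, and their part in the differences from ventral SKPs was not tested.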

How the results depend on the processing

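The difference between SKPs and MSCs kept its sign in all 5 genes under the 21 alternatives run, between 4.88 and 5.33 for Dusp4, 2.64 and 2.99 for Dusp6, 1.97 and 2.32 for Etv1, −0.85 and −0.61 for Ier3, and −2.89 and −2.15 for Fgf7. Dusp6 between dorsal and ventral SKPs passed the threshold in some: at −0.86 with the filter on dim genes (adjusted p = 0.0452), the trend and robust options (0.0494) and SKP arrays alone (0.00387), at −0.90 with array weights (0.0163), and at −0.86 without MSC array 1 (0.0203), 3 (0.039) or 4 (0.0357). Its value was −0.91 to −0.82 with 1 array left out. In SKP arrays alone Dusp6 between facial and dorsal SKPs (0.55) and Fgf7 between dorsal and ventral SKPs (1.75; 1.43 to 1.95 with 1 array left out) passed as well. The rest of the member tests between regions did not pass in any alternative.

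Some small regional differences turned. Dusp4, facial minus dorsal, was 0.0264 with array weights, 0.19 without both arrays 3 and −0.90 to 0.0009 with 1 array left out. Dusp4, dorsal minus ventral, was −0.38, −0.44 and −0.44 to 0.46. Etv1, dorsal minus ventral, was 0.0367 with repeated quantile normalisation, 0.0134 with array weights, 0.0374 without both arrays 3 and −0.0852 to 0.0374 with 1 array left out, and Ier3 was −0.11 to 0.0082 there. The cause was not tested.

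Counts of called genes moved more. Facial minus dorsal (182) gave 34 with the macrophage and leukocyte covariate, 99 without both arrays 3 and 94 to 258 with 1 array left out, with 94 without facial array 3 and 121 without ventral array 1. Facial minus ventral (958) gave 2441 with array weights, 274 with the covariate and 390 to 1416 with 1 array left out, with 610 without facial array 1, 515 without facial array 3 and 390, 479 and 394 without ventral arrays 1, 2 and 3. Dorsal minus ventral (886) gave 1519 with array weights and 327 to 937 with 1 array left out, with 334, 465 and 327 without ventral arrays 1, 2 and 3. Facial minus trunk (391) gave 690 with array weights, 48 with the covariate, 212 without both arrays 3 and 149 to 524 with 1 array left out, with 217 and 150 without facial arrays 1 and 3 and 149, 170 and 169 without ventral arrays 1, 2 and 3. Pathway genes called between SKPs and MSCs were 21 to 28 higher (25) and 10 to 15 lower (13) with 1 array left out, and 18 higher and 7 lower with the covariate. The share of all genes called between SKPs and MSCs in these settings was not counted.

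The labels number the samples of each group, but are not said to pair them across groups. Deviations of same-numbered arrays correlated between −0.12 and 0.20 over 18 pairs, with 1 above 0.1. With 3 or 4 arrays a group, these correlations cannot show whether same-numbered isolates were paired. With the replicate number as a block, 106 genes were called for facial minus dorsal, 566 for dorsal minus ventral and 173 for facial minus trunk. The block left Dusp6 between dorsal and ventral SKPs at −0.86 (adjusted p = 0.0633), and none of the 20 member tests between regions passed with it.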
